A study of Mus musculus with 67 samples.

Results

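Of the 111638 elements, stretches of DNA at which open chromatin was measured, 287 (0.257%) gained accessibility after the day 3 neuromesodermal progenitor (NMP) stage and then held a nearly equal level in every neural progenitor (NP) type on days 4 to 6. They were chosen on their measured accessibility. Values were averaged per day and cell type over all concentrations of SAG, a small molecule that activates Hedgehog signaling, on the authors' variance-stabilized scale (VST), which is close to log2 of normalized read counts. An element was taken when all 12 neural means (p0-1, p2, pMN and p3 on days 4, 5 and 6) lay at least 2 above the NMP mean, were at least 7, and spanned less than 1. The rise over NMPs and the evenness among NPs are therefore what defined the set, and both are given below as a description, without a test.

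Accessibility was profiled by CaTS-ATAC, in which cells are fixed, cut with the Tn5 transposase, stained for intracellular transcription factors and then sorted. The cells were the mouse embryonic stem cell line HM1, differentiated toward spinal cord and sampled in 67 libraries of 25 conditions with 3 (17 conditions) or 2 (8 conditions) replicates; replicates are independent differentiations, while several types were sorted from the same dish. NMPs (3 libraries, 0 nM SAG) were taken on day 3 after bFGF with the Wnt secretion blocker LGK, followed by a pulse of bFGF, CHIR99021, SB-431542 and DMH1. The 64 neural libraries came from cells that had also received 100 nM retinoic acid (RA) from day 3, together with 0 or 10 nM SAG for p0-1, 10 or 100 nM for p2, and 100 or 500 nM for pMN and for p3. NPs were gated on SOX2 with combinations of PAX6, NKX6.1, OLIG2 and NKX2.2: p3 on NKX2.2, pMN on OLIG2, p2 on NKX6.1 with PAX6, and p0-1 on PAX6 without NKX6.1. NMPs and NPs thus also differ in day and in medium, and these cannot be told apart from cell type in the rise described here. All samples come from 1 parental line. P values below measure the spread between its libraries within a type and day, with each library taken as independent. Those given with replicate number as a block measure the spread left within replicate number and day.

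As background, a regulatory element is read by transcription factors once nucleosomes have been displaced from it, and gain of accessibility marks the moment at which a promoter or enhancer becomes available. Progenitors along the dorsoventral axis of the neural tube express different homeodomain and bHLH factors, but all are neural and share SOXB1 proteins, which bind a short word of the type ACAAAG or ACAATG, and respond to RA through nuclear receptors. RFX proteins, which bind paired half-sites built on GTTGCC, act in ciliated and neural cells.

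The sorted populations were checked at the element nearest each marker gene's start. T, Cdx2 and Nkx1-2, which mark NMPs, had mean VST values of 10.21, 11.84 and 10.55 in NMPs and at most 8.44 in any day 6 NP type. On day 6, the Olig2 element had its highest mean in pMN (11.19, against 8.70 in p0-1), the Pax6 element in p0-1 (11.93, against 10.73 in p3), and the Nkx6-1 element was lowest in p0-1 (10.48, against 11.25 to 11.34 in the others). The Sox2 promoter was open throughout, at 10.57 in NMPs and 10.81 to 10.99 on day 6. The p3 marker Nkx2-2 was not analysed here, so p3 had no positive check. Of the markers of other cell types, the element nearest Meox1 (paraxial mesoderm) was at 6.46 in NMPs, 8.04 to 8.46 in day 6 p0-1, p2 and pMN, and 9.76 in day 6 p3, while those of Sox10, Foxd3 (both neural crest) and Sox17 (endoderm) were lower in every day 6 NP type than in NMPs. None of the marker genes had an element among the 287.

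A pair of libraries stood apart from the others of their day and cell type, with SAG concentrations pooled. In the p0-1 day 4 10 nM replicate 3 library, the 287 elements had a median difference of -0.41 from the mean of the other p0-1 day 4 libraries. Of the 287, 55 were more than 1 lower. Those other libraries include the ones at 0 nM SAG, so a SAG difference is not separated from a replicate difference here. This library was low at elements of low GC content and high at those of high GC content. Over all tested elements, the median difference was -0.62 in those of at most 46.75% GC and 0.70 in those of at least 63.25% GC. The 287 were split at their own median GC content instead, with -0.84 up to it and -0.14 above it. Its T, Cdx2 and Nkx1-2 elements stood at 8.91, 10.30 and 9.68, above the other p0-1 day 4 libraries (T at most 8.26, Cdx2 at most 9.71, Nkx1-2 at most 9.15) and below NMPs (T at least 10.06, Cdx2 at least 11.68, Nkx1-2 at least 10.35). The p3 day 4 100 nM replicate 1 library had the fewest reads in elements of all libraries (9298160). By level and GC content it differed in the same directions by less. Its median was -0.21 with 12 of the 287 more than 1 lower, and all tested elements had -0.32 and 0.21 in the low and high GC ranges. Its Cdx2 element (9.43) lay within the other p3 day 4 libraries (8.87 to 9.48). Its T (8.44) and Nkx1-2 (8.78) elements lay above them (T at most 8.23, Nkx1-2 at most 8.76). Of the remaining libraries, 3 had 1 element more than 1 lower and 59 had none. The part of GC content or of remaining NMP-like accessibility in the values of these libraries was not tested. Without both libraries the same thresholds gave 334 elements, 280 of them among the 287.

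The sequences at the elements with the largest rise, and at the highest elements nearest genes of the described lists (Rarb proximal, Nkx6-2 and Maml2), are shown as examples of the DNA that was opened. Elements near Jag1, Gli3 and other listed genes are not printed. Each is the central 200 bases of the element, read from the plus strand of GRCm38 (mm10). Capitals mark a SOX word (ACAATG or ACAAAG) or an RFX word (GTTGCCA or GTTGCTA) on either strand, so that a word on the minus strand is printed as its reverse complement.
H2afy3, chr15:62470811-62471010: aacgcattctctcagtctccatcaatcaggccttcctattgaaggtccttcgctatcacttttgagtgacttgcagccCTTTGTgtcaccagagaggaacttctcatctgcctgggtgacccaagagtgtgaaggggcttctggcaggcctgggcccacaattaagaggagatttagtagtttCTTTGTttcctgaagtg
Gm8179, chr8:32069042-32069241: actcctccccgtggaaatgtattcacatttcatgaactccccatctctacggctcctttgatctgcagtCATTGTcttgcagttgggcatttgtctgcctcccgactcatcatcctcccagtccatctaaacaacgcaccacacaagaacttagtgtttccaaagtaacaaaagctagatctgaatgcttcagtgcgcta
Rarb distal, chr14:16733478-16733677: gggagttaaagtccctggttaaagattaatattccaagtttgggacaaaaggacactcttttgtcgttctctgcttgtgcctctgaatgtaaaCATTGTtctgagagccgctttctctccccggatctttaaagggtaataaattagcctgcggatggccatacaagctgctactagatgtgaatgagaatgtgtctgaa
Gm31520, chr6:66399201-66399400: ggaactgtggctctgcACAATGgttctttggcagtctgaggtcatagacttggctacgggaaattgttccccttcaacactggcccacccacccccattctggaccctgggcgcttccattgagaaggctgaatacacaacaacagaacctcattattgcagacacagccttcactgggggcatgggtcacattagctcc
Mir6352 (within Epha4), chr1:77502855-77503054: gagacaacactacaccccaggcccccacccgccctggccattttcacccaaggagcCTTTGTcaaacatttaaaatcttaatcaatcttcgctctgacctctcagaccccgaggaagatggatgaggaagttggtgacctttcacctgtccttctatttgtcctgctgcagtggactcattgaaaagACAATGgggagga
Fsip1, chr2:118218092-118218291: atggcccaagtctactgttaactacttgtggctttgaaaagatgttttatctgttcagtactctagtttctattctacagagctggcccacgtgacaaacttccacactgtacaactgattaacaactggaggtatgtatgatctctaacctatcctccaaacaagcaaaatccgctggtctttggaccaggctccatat
Rarb proximal, chr14:16574274-16574473: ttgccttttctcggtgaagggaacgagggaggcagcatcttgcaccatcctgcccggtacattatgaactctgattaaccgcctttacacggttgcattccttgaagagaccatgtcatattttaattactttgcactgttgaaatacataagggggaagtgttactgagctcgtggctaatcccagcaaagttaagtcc
Nkx6-2, chr7:139528628-139528827: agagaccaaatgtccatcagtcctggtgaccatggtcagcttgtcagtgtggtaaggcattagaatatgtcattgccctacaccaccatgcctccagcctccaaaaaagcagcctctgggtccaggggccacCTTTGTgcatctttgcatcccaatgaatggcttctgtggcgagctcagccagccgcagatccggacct
Maml2, chr9:13652476-13652675: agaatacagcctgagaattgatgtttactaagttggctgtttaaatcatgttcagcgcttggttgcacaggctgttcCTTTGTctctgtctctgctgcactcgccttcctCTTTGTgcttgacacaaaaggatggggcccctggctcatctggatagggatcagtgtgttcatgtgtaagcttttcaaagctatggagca
Of these 9 chosen windows, 3 hold 2 SOX words (H2afy3, Mir6352 and Maml2), 4 hold 1 and 2 hold none (Fsip1 and the proximal Rarb element), and 0 hold an RFX word. A match is a description of the letters and not of a bound site.

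The 287 elements rose from a median of 29.6 normalized counts in NMPs (lowest 2.38, highest 487) to a median of 681 in NPs (150 to 3529). The fold in mean counts was 18.2 at the median and ran from 4.89 to 191. On the VST scale the medians were 5.35 and 9.40, and the smallest of an element's 12 rises over NMPs was 3.24 at the median (2.02 to 6.03). It was above 4 for 85 elements and above 5 for 12. In NMPs, 45 elements had a mean under 10 normalized counts and 47 had one above 100, and every one of the 287 had at least 1 read in each NMP library. More cells with an open element and more openness per cell cannot be told apart in these bulk libraries.

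Each library showed the rise. The median over the 287 elements was 5.23 to 5.54 in the 3 NMP libraries and 8.84 to 9.74 in the 64 neural libraries, with a neural median of 9.41. As a share of all reads in elements, they took 0.0592% to 0.0876% in NMP libraries and 0.815% to 1.43% (median 1.27%) in neural libraries. For all 287 elements, the highest NMP library lay below the lowest neural library. The same held for 13.8% of all 111638 elements, and since the rule chose on this contrast the count describes the choice only.

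**Figure D1:**
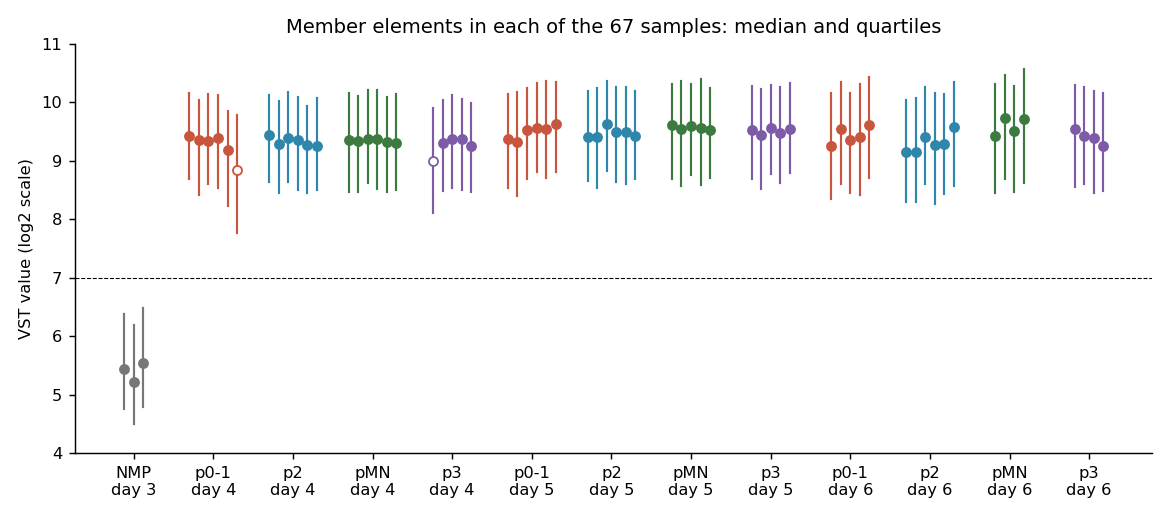
VST values (log2 scale) of the 287 elements in each of the 67 libraries, by day and cell type, with the median as a point, the quartiles as a bar, open points for the libraries that stood apart and a dashed line at the rule's level of 7. The NMP medians lie at 5.23 to 5.54 and the neural medians at 8.84 to 9.74.

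A rise of at least 2 in all 12 means was the strictest criterion and held for 3572 elements, against 18980 for a level of at least 7 and 37538 for a span under 1. Rise and level together were met by 1841 elements. Of these 1841, the span of the 12 means ran from 0.235 to 4.54 with a median of 1.63, and 287 (15.6%) fell under 1. The distribution was continuous across the limit, with 154 elements between 0.8 and 1 and 184 between 1 and 1.2. No gap separated the even elements from the others. The elements just inside each limit were near Gm5544 (rise 2.02), Trip13 (level 7.02) and Zfp462 (span 0.999), and those just outside were near Rbm43 (rise 1.95), Rpe65 (level 6.98) and Dicer1 (span 1.00).

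**Figure D2:**
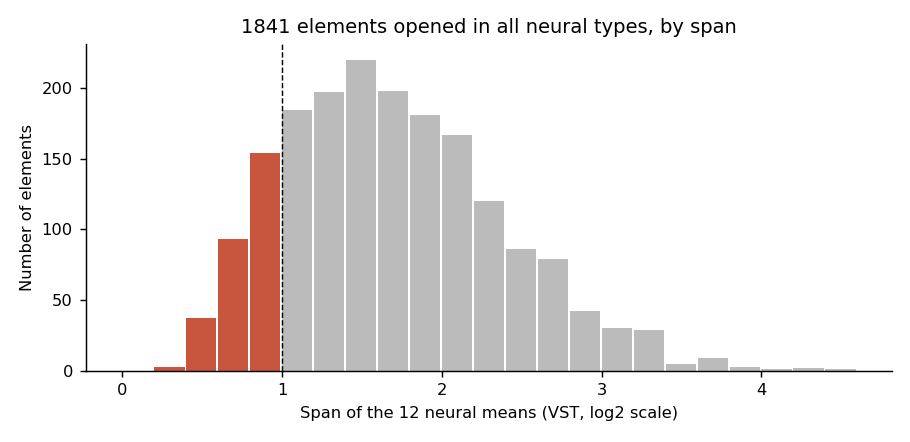
Number of elements against the span of their 12 neural means (VST, log2 scale), for the 1841 elements that were open in all NP types and at least 2 above NMPs. The dashed line is the limit of 1, the 287 elements to its left are drawn in red, and the count continues to rise past the line from 154 to 184 per bin.

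Within the limit of 1, the elements still varied with day and type. The span had a median of 0.827, which was 3.93 times the replicate SD at the median (SD 0.203), and in 10 elements the span was under 2 replicate SDs. It was under 0.5 for 15 elements and above 0.9 for 89. The median level was 9.24, 9.32, 9.34 and 9.29 in p0-1, p2, pMN and p3 on day 4, 9.52, 9.47, 9.59 and 9.53 on day 5, and 9.34, 9.29, 9.57 and 9.38 on day 6. Day 5 was above day 4 for 235 elements in p0-1 (median difference 0.28), 219 in p2 (0.19), 215 in pMN (0.17) and 242 in p3 (0.28). Day 5 was also higher for 63.5% to 67.7% of all elements with a mean above 100 counts. Without the libraries that stood apart, the counts were 212 in p0-1 (73.9%, against 69.6% of elements with a mean above 100 counts) and 219 in p3 (76.3% against 65.7%). On day 6, pMN was above p2 for 249 elements and below it for 38 (median difference 0.23). Since day 6 pMN has replicates 2 and 3 only, the same was computed with those replicates of p2, which gave 230 higher and 57 lower (0.19), or 80.1% higher against 58.3% of elements with a mean above 100 counts. The lowest of the 12 means was most often p0-1 on day 4 (82 elements) or p3 on day 4 (58), and the highest was most often pMN on day 6 (86). Without both libraries that stood apart, these counts were 44, 56 and 85, the day 4 medians of p0-1 and p3 were 9.35 and 9.33, and the median span was 0.791.

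Elements are described first by the smallest of their 12 rises on the VST scale, of which the H2afy3 element had the largest (6.03). The H2afy3 element (chr15:62470363-62471458, intergenic, at -251459 bp from the nearest start) had 24.2, 10.8 and 10.8 normalized counts in the NMP libraries. In the neural libraries it had 1476 at the lowest, 2114 at the median and 2685 at the highest, a 136-fold rise of the mean. Its lowest neural library was thus far above its highest NMP library, and its lowest and highest neural means were p3 on day 4 and pMN on day 6. The Gm8179 element (chr8:32068688-32069595, intergenic) had 21.8, 17.5 and 9.69 counts in NMPs against 1221, 2009 and 2863 (lowest, median, highest) in NPs, and the lowest was the p0-1 library that stood apart. The Gm31520 element (chr6:66398801-66399800, intergenic, 126795 bp from the start) went from 15.8, 10.8 and 5.38 to 639, 1491 and 2243. There the groups were separated as well, with the highest neural mean in p0-1 on day 6 and the lowest in p0-1 on day 4, or in p3 on day 4 without the libraries that stood apart.

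Within genes, an element in an intron of Epha4, a receptor for ephrins in axon guidance, whose nearest annotated start is that of Mir6352 (chr1:77502428-77503481), had 35.2, 25.6 and 26.9 counts in NMPs and 1648, 2219 and 3272 in NPs. The Fsip1 element (chr2:118217640-118218743, intron) had 12.1, 12.1 and 9.69 counts in NMPs and 240, 1086 and 1312 in NPs. The 240 belongs to the p0-1 day 4 10 nM replicate 3 library and the next lowest, 571, to the p3 day 4 100 nM replicate 1 library, the same pair that stood apart. Its span was 0.39 with all libraries and 0.47 without them.

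Both elements nearest Rarb, the gene of RA receptor beta, an RA-induced nuclear receptor, were kept in all NPs, from different starting levels. The distal one (chr14:16732989-16734165, intron, at -158101 bp from the nearest start) had 15.8, 12.1 and 19.4 counts in NMPs and 834, 1493 and 1766 in NPs, a 94.6-fold rise. Its span was 0.28 (0.25 without the libraries that stood apart), and the 834 is again the p0-1 day 4 10 nM replicate 3 library. The proximal one (chr14:16572859-16575887, intron, 1103 bp from a start) already had 371, 306 and 246 counts in NMPs. It rose 6.26-fold, to 1186, 1943 and 2683 in NPs. Its lowest mean was pMN on day 4 and its highest p3 on day 6 (span 0.83). Per kb the distal element had a mean of 1267 counts in NPs and the proximal one 636.

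Among genes of ventral patterning, Nkx6-2 and Gli3 were nearest to elements of the set. Nkx6-2 encodes a homeodomain repressor of the ventral neural tube, and its 2 elements, 2151 bp apart, lie in an intron of Inpp5a. The first (chr7:139528292-139529162) had 238, 163 and 210 counts in NMPs and 969, 1844 and 2544 in NPs. Its lowest neural libraries were p3 on day 6 and p0-1 on day 5, and its lowest and highest means were p3 and pMN on day 6 (span 0.85). The second (chr7:139530308-139531448) rose further, from a mean of 24.4 to 1199 counts. Gli3 encodes the zinc finger protein that serves mainly as the repressor of Hedgehog signaling. Its intronic element (chr13:15623346-15625260) had 61.8, 45.9 and 67.8 counts in NMPs and 301, 558 and 776 in NPs, and the lowest 2 neural libraries were p0-1 day 4 10 nM replicates 2 and 3.

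In the Notch list, the elements near Maml2 and Jag1 were members. Maml2 encodes a Mastermind-like coactivator of the Notch complex. Its element (chr9:13651953-13653197, intron) had 38.8, 28.3 and 35.5 counts in NMPs and 689, 1575 and 2432 in NPs. Jag1 encodes a Notch ligand. Its element (chr2:137229362-137230632, at -113477 bp from the start) had 18.2, 8.09 and 8.62 counts in NMPs and 509, 1062 and 1511 in NPs. At both, the 2 lowest neural libraries were p0-1 day 4 10 nM replicates 2 and 3 and the highest was pMN on day 6. The span was 0.80 for Maml2 and 0.69 for Jag1.

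Among transcription factor genes, SoxD, TALE homeodomain and orphan nuclear receptor genes had elements in the set. The Sox5 element (chr6:144154780-144155571, exon) had 15.8, 12.1 and 19.4 counts in NMPs and 625, 1110 and 1463 in NPs. The Nr2f2 element (chr7:70845771-70846518), at -479398 bp from the start of the gene of COUP-TFII, had 20.6, 5.40 and 18.3 counts in NMPs and 643, 1059 and 1762 in NPs. Its lowest libraries were p3 on day 4 and its highest pMN on day 6. The Meis2 element (chr2:116019257-116021878, intron) began higher, at 242, 154 and 176 counts, and reached 922, 1496 and 2398, an 8.03-fold rise of the mean. The Pknox2 element (chr9:37092930-37094714, intron) had 97.0, 63.4 and 127 counts in NMPs and 906, 1500 and 2142 in NPs, 16.0-fold. Meis2 and Pknox2 encode TALE homeodomain proteins, partners of HOX and PBX proteins, and both elements had their lowest mean in p0-1 on day 4 and their highest in pMN on day 6. Without the libraries that stood apart, the lowest mean of the Meis2 element was p3 on day 6.

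The element near Msi1, which encodes an RNA-binding protein of neural progenitors (chr5:115397930-115398770, intergenic), had 114, 115 and 132 counts in NMPs and 945, 1501 and 2260 in NPs. Its mean was lowest in p0-1 on day 4 and highest in p3 on day 6. The element near Sox6, a further SoxD gene, rose from a mean of 29.2 to 499 counts.

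By counts not corrected for width, the highest element was near Mir219a-2, a microRNA gene known from oligodendrocyte differentiation (chr2:29855456-29857512, intergenic). It had 285, 167 and 262 counts in NMPs and 2221, 3434 and 4890 in NPs. The Fam181a promoter element (chr12:103313533-103316259) had 210, 166 and 154 counts in NMPs and 1665, 3263 and 4147 in NPs. The elements near LOC105245869 (287, 368 and 293 counts in NMPs) and Zfp41, a zinc finger gene (105, 70.1 and 74.3), reached neural medians of 3125 and 3002. Each of these lay apart from NMPs in every neural library. Levels were compared between elements per kb of element, where the Zfp41 element had a mean of 2334 counts in NPs, the Mir219a-2 element 1716, the LOC105245869 element 1421 and the Fam181a element 1176. The range over the 287 was 103 to 3324 counts per kb, so that other elements stood above these per kb, among them Gm8179 (2253) and Mir6352 (2164).

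With all libraries, the 4 most even elements were the distal Rarb and Fsip1 elements above and those near BC024139 and Derl1, but without the libraries that stood apart the span of the Fsip1 element (0.47) was above that of the Zfp41 element (0.44). The BC024139 element (chr15:76137555-76140569, intergenic) had 77.6, 51.3 and 59.2 counts in NMPs and 270, 457 and 726 in NPs, with a span of 0.24. The p0-1 libraries of day 6 alone ran from 312 to 726 counts. The Derl1 element (chr15:57875321-57876289), in an intron of a gene of protein quality control in the endoplasmic reticulum, had 15.8, 2.70 and 9.69 counts in NMPs and 409, 556 and 674 in NPs, with a span of 0.41.

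**Figure D3:**
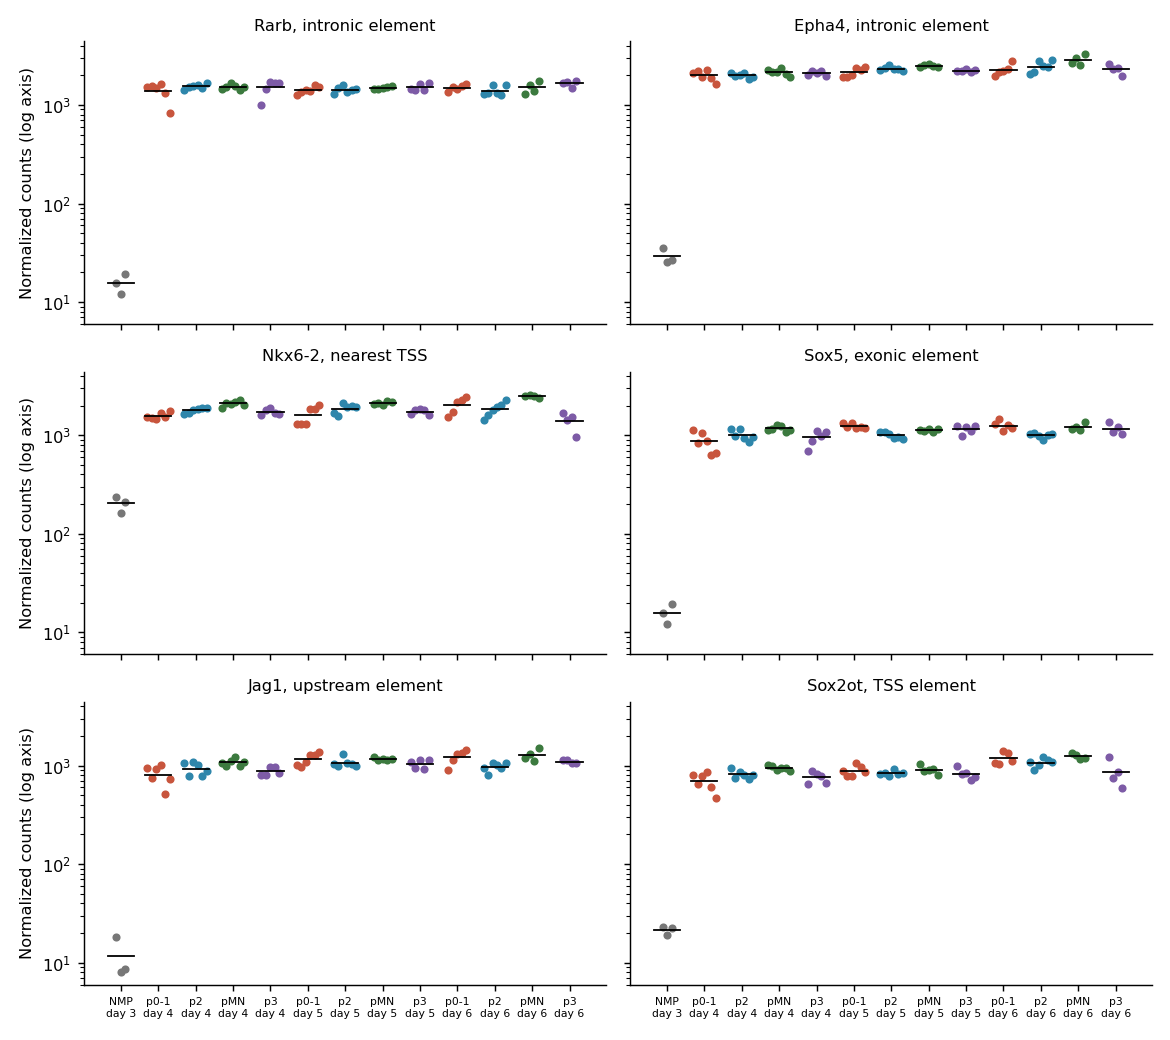
Normalized counts (log axis) by day and cell type for the distal Rarb, Epha4 (nearest start Mir6352), Nkx6-2, Sox5, Jag1 and Sox2ot elements, with 1 point per library and the mean of each type and day as a line. In each panel the 3 NMP points lie below every neural point, the Nkx6-2 element starting highest, at 163 to 238 counts.

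Promoters were rare in the set. Of the 287, 5 were annotated as promoter-TSS, near Fam181a, Gm32123, C130026L21Rik, Sox2ot and Tceal3. The Sox2ot element (chr3:34558719-34562031), at a start of the long noncoding RNA that overlaps Sox2, had 23.0, 18.9 and 22.6 counts in NMPs and 464, 873 and 1409 in NPs, while the Sox2 promoter itself was already open in NMPs, as given above. The Gm32123 element (chr14:25108263-25109415) had 137, 60.7 and 90.5 counts in NMPs and a neural median of 1517, and the C130026L21Rik element (chr5:111580789-111582186) had 93.3, 72.8 and 92.6 and a neural median of 990. The spans of these last elements, 0.995 and 0.965, became 1.02 and 1.00 without the libraries that stood apart, past the limit. The Tceal3 element (chrX:136590295-136591219) had 27.9, 28.3 and 28.0 counts in NMPs and 245, 370 and 575 in NPs.

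The RefSeq promoter windows (GRCm38.p6, 250 bases before and 50 after the start, plus strand) of a pair of these genes are shown because both hold an RFX word. They were chosen after their letters were seen, and capitals mark SOX and RFX words as above.
C130026L21Rik, chr5:111581311-111581610: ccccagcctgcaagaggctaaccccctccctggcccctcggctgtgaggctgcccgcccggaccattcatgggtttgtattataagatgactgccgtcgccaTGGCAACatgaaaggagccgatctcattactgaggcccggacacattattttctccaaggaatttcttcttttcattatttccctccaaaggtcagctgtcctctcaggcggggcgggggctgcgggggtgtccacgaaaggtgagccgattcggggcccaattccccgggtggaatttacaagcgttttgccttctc
Tceal3, chrX:136590592-136590891: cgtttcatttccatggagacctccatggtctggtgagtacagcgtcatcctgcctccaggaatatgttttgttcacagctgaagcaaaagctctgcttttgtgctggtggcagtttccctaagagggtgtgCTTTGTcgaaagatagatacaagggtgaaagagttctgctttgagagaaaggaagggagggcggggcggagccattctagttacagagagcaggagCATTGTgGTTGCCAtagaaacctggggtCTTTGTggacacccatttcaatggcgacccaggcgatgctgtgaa
The Tceal3 window holds 3 SOX words and 1 RFX word, and the C130026L21Rik window 0 SOX words and 1 RFX word. Of 32851 RefSeq promoter windows of 300 bases, 28.6% hold a SOX word and 7.63% an RFX word.

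By position, the 287 elements were mostly intronic (143, 49.8%, against 41.1% of all elements) or intergenic (128, 44.6%, against 44.2%). Exons held 7 (2.44% against 5.88%), promoters 5 (1.74% against 7.41%) and transcription ends 4. For comparison, the 1554 elements that opened in all NPs but unequally, with a span of 1 or more, had 1.16% in promoters, and the 10723 elements that stayed open at an even level from NMPs onward had 49.0%. Since all 287 have a mean above 100 normalized counts, the shares of the 31744 such elements are the closer background: 29.9% intergenic, 34.8% intronic, 11.7% exonic and 22.0% in promoters. The median distance to the nearest start was 51439 bp, against 62256 bp for the unequal and 218 bp for the constant elements. Only 20 (6.97%, against 18.0% of all) lay within 5 kb of a start, and 75 (26.1%, against 24.0%) lay beyond 100 kb. The median width was 1228 bp, against 883 bp for all elements and 1364 bp for those with a mean above 100 normalized counts.

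The elements were scattered. They were nearest to 280 genes, of which 7 had 2 elements each: Trio, Rarb, Trak1, Adgrl3, Foxb1, Nkx6-2 and Gm20491. Trio encodes a guanine nucleotide exchange factor, Trak1 a mitochondrial transport adaptor, Adgrl3 a synaptic adhesion receptor and Foxb1 a forkhead factor. The median distance to the nearest other element of the set was 2336035.5 bp, and 14 elements, as 7 pairs, lay within 100 kb of each other. The closest were the elements near Nkx6-2 (2151 bp between centers), Trak1 (5637.5 bp) and Foxb1 (40440 bp). Within 100 kb of an unequal element lay 87 of the 287. By chromosome, the share of elements in the set ran from 0.143% on chromosome 11 to 0.436% on chromosome 14.

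Gene lists were read by how many of their annotated elements were among the 287, against 0.257% of all elements. Elements of SoxC, SoxD and SoxE genes were members in 2 of 124 cases (1.61%), those of Zic, Meis and Pbx genes in 3 of 210 (1.43%), of the BMP and Wnt list in 3 of 283 (1.06%), and of the RA and Notch lists in 2 of 198 (1.01%) and 2 of 199 (1.01%). The dorsoventral identity list had 2 of 260 (0.769%), both near Nkx6-2, the Hedgehog list 1 of 151 (0.662%), axon guidance 5 of 830 (0.602%), pan-neural progenitor genes 2 of 424 (0.472%), the FGF-ERK list 1 of 219 (0.457%) and cell adhesion 1 of 819 (0.122%). With 1 to 5 members a list, these shares rest on few elements. Of elements with a mean above 100 counts, 0.904% were members. There the share was 4.55% in the SoxC, SoxD and SoxE list, 1.19% in the pan-neural list and 0.585% in the cell adhesion list.

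Several lists had 0 members: Hox (of 87 elements), NMP (158), neuronal differentiation (286), pluripotency (78), paraxial mesoderm (86), neural crest (68) and endoderm (65). At the share of all elements, 0.257%, lists of these sizes would hold few or no members, so the absence is not a result about them. The axon guidance members were near Plxna2, a semaphorin co-receptor (15.3 counts in NMPs, 962 in NPs), Slit1 (62.6 and 869) and Efnb2 (10.2 and 769), which encode guidance ligands, Ephb2, an ephrin receptor (17.2 and 243), and Sema6a (26.0 and 225). Those of the Wnt list were near Tcf7l1 (30.8 and 1036) and Tcf7l2 (90.5 and 891), which encode the DNA-binding partners of beta-catenin, and Fzd3, a Frizzled receptor (66.8 and 756). The remaining members were near Etv1, an ETS factor downstream of FGF (24.7 and 312), and Cdh4, a cadherin (13.1 and 180).

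In base composition the 287 were close to the median of all elements. Their median GC content over the central 400 bp was 48.25%, against 48.0% of all elements, 46.0% of the unequal and 64.5% of the constant elements. A ratio of observed to expected CpG above 0.6, as in CpG islands, was found in 0 of the 287 and in 11.6% of all elements, and the constant elements had 78.9%. Elements with a mean above 100 counts, the closer background, had a median GC content of 53.5%, and 35.8% of them had such a ratio. Outside promoters these values were 51% and 24.3%. The median share of repeat-masked bases was 10.75%.

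Short words were counted on either strand of the central 400 bp, each as the share of elements with at least 1. A SOX word (ACAATG or ACAAAG) was in 210 of the 287 (73.2%), against 52.7% of all elements and 47.7% of elements outside promoters with a mean above 100 counts. The unequal elements had nearly the same share, 73.6%. An RFX word (GTTGCCA or GTTGCTA) was in 52 (18.1%), against 10.6% of all and 13.6% of unequal elements, and the longer X-box word GTTNCCATG, which can overlap it, in 17 (5.92%, against 3.15% and 5.60%). A SOX and an RFX word together were in 34 (11.8%, against 5.89% and 9.40%). Within the central 200 bp the shares were 50.9% for SOX and 10.1% for RFX, against 33.8% and 5.72% of all elements.

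Of the other words, the NFI palindrome was in 9 elements (3.14%, against 1.28% of all and 0.708% of unequal elements), and the HOX-PBX word TGATTNAT in 34 (11.8%, against 7.54% and 11.97%). The TEAD word CATTCCA was in 35 (12.2%, against 8.71% and 10.4%), the MEIS word CTGTCA in 99 (34.5%, against 29.2% and 34.0%) and the nuclear receptor half-site AGGTCA in 83 (28.9%, against 25.1% and 27.0%). Below the share of all elements were the octamer ATGCAAAT or ATGCTAAT, in 7 (2.44%, against 4.88% of all and 4.83% of unequal elements), the TCF/LEF word CTTTGAT, in 10 (3.48%, against 6.65% and 6.95%), and the SP/KLF word GGGCGG, in 27 (9.41%, against 17.0% and 6.44%). The CTCF-type word CCNNNAGGG had nearly equal shares in the 287 and all elements (22.3% and 22.4%), but was in 27.9% of elements with a mean above 100 counts. The GLI word GGGTGGTC was in 2 of the 287 (0.697%, against 1.23% of all and 1.16% of unequal elements). The AP-1 word TGANTCA was in 8.01% (against 12.5% of all elements), the GATA word AGATAA in 13.9% (18.7%), and the E-box words CAGCTG in 26.1% (26.3%) and CAGATG in 25.8% (32.1%). Against elements with a mean above 100 counts, where GATA was in 13.2% and CAGATG in 24.0%, the shares of GATA and CAGATG among the 287 were no longer the lower ones. No test was made on these shares.

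Whether the level of these elements changed with Hedgehog activation within a type was compared next. The rule pooled SAG concentrations and did not use this contrast directly, but it limited the spread among types that were grown at different concentrations, from the same libraries, so that elements that vary strongly with SAG may have been left out by the choice, and a low number of calls is in part fixed by it. Within each sorted type, the 2 concentrations were compared over days 4 to 6 with limma, with day as a term, with calls made where the adjusted P was under 0.01 and the difference exceeded 1 on the log2 scale. None of the 287 was called in any type, and their differences stayed within -0.72 and 0.49 on the log2 scale. The background was low as well: of all tested elements, 0.00968% were called in p0-1 (10 against 0 nM), 0.066% in p2 (100 against 10 nM), 0% in pMN and 0% in p3 (500 against 100 nM). At an unadjusted P under 0.05, 38 of the 287 passed in p0-1 (13.2%, against 13.5% of all tested), 52 in p2 (18.1% against 19.6%), 3 in pMN (1.05% against 2.95%) and 12 in p3 (4.18% against 2.99%). Without the p0-1 library that stood apart, 70 passed in p0-1 (24.4% against 15.6%). With the replicate number within each day as a block, 53 passed in p0-1 (18.5% against 21.7%), 92 in p2 (32.1% against 37.5%), 50 in pMN (17.4% against 15.7%) and 19 in p3 (6.62% against 8.15%). With each library centered on its median and no block, 59 passed in p2 (20.6% against 20.1%) and 3 in p3 (1.05% against 2.69%). In every type the order against the background thus depended on the libraries or the fit used. With limma's voom on recovered reads, 0 of the 287 passed both thresholds in each type. By the adjusted P alone, 3 passed in p2 (1 higher and 2 lower), against 503 of all 31831 tested elements. Leaving out the library of p0-1 or of p3 that stood apart also gave 0 by both thresholds.

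At an adjusted P under 0.01 alone, without the limit on size, 2 of the 287 were called, both lower at 100 nM than at 10 nM in p2, against 0.977% of all elements tested there (103 higher and 208 lower, or 150 and 124 after each library was centered on its median). After centering, 1 of the 287 was called in p2, Olfml3, which was higher, and the 2 lower calls were lost. With both thresholds, the 21 elements called in p2 were 8 higher and 13 lower, or 13 and 6 after centering. In p0-1 the second rule called 0 of the 287 (0.0194% of all), and in pMN (0%) and p3 (0%) also 0. Replicate numbers paired the libraries in p0-1, p2 and pMN, and with the number as a block the second rule called 1 of the 287 in p0-1 (0.439% of all), 29 in p2 (13.4% of all), 0 in pMN (0.188%) and 0 in p3 (0%). The 29 were 12 higher and 17 lower, against 1021 higher and 3230 lower of all 31831 tested elements. After centering, 40 were called, 34 higher and 6 lower, against 4656 of the 31831 (2229 higher and 2427 lower). The direction of these small differences in p2 thus depended on the scaling. The 29 are a smaller share of the 287 than the 13.4% called among all elements.

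The element with the largest difference was in an intron of Thrb, the gene of thyroid hormone receptor beta (chr14:17900131-17901120). In p2 it had 188 to 374 normalized counts at 10 nM (median 287, mean 276 ± 67.3 SD, n = 9) and 151 to 233 at 100 nM (mean 190 ± 30.7 SD, n = 9). The ranges overlapped with the days pooled. Within each day, every 10 nM library lay above every 100 nM library. The lowest at 10 nM and highest at 100 nM were 188 and 163 on day 4, 288 and 225 on day 5, and 244 and 233 on day 6. The difference of -0.49 (SE 0.087, log2 scale) had an adjusted P of 0.00509 with limma, or 0.000141 with the block. It was negative on each of the 3 days (-0.35, -0.71 and -0.40), and its adjusted P was 0.0128 after centering and 0.00557 to 0.0955 with 1 replicate number left out. In p0-1 the Thrb element also had a lower mean at the higher concentration, 276 ± 86.7 (SD) at 0 nM and 160 ± 39.7 at 10 nM. That difference, -0.72 (SE 0.165), did not pass (adjusted P 0.0446 with limma, 0.0492 without the library that stood apart) but passed with the block, at -0.67 and an adjusted P of 0.00765. In pMN and p3 the differences were -0.16 and 0.18, with adjusted P of 1.00 and 0.948 by limma. Whether the difference at Thrb varied between types was not tested.

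The other called element was in an intron of Fars2, which encodes the mitochondrial phenylalanyl-tRNA synthetase (chr13:36282071-36284298). In p2 it had 692 ± 167 counts at 10 nM and 533 ± 90.3 at 100 nM (SD, n = 9 each), a difference of -0.35 (SE 0.068) with an adjusted P of 0.00772 by limma and 0.000391 with the block. It no longer passed after centering (0.0130), without the filter on the mean (0.0120), or with any 1 replicate number left out (0.0134 to 0.121). In the other direction, the smallest P in p0-1 belonged to the Nkx6-2 element chr7:139528292-139529162. It had 1465 ± 153 counts at 0 nM (1295 to 1738) and 1959 ± 302 at 10 nM (1515 to 2445), a difference of 0.38 (SE 0.069) with an adjusted P of 0.0214 by limma and 0.0172 with the block, neither past 0.01.

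In p2 the smallest P among higher elements was at Olfml3, the gene of a secreted olfactomedin-like protein (chr3:103733880-103735568), with 1338 ± 90.9 counts at 10 nM and 1543 ± 95.9 at 100 nM. Its difference of 0.20 had an adjusted P of 0.0227 by limma and passed with the block (0.00494), with voom (0.00496, difference 0.24) and after centering without the block (0.00947, difference 0.26). In p3 the element near Crtac1 differed by 0.34 (SE 0.094) and the Tcf7l1 element by -0.26, both with an adjusted P of 0.948 by limma. In pMN the element near Cdk5rap3 differed by 0.10 and the Tcf7l1 element by -0.12, both with an adjusted P of 1.00. Over all 287 elements, pMN differences lay between -0.21 and 0.15 and p3 differences between -0.27 and 0.35 on the log2 scale.

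**Figure D4:**
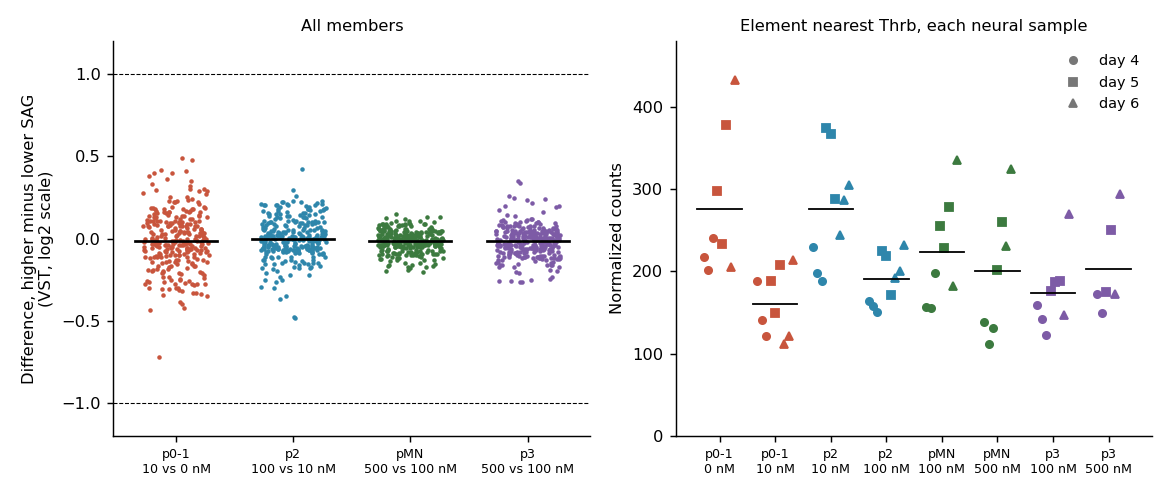
Left, difference between the higher and the lower SAG concentration (VST, log2 scale) for each of the 287 elements in 4 cell types, with the median as a bar and dashed lines at 1 and -1, which no point crosses; right, normalized counts of the Thrb element in each neural library by type and concentration, with the mean as a bar. The bars stand at 276 and 160 in p0-1 and at 276 and 190 in p2. The points of the compared concentrations overlap with the days pooled, though in p2 not within a day.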

How the data were processed

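CaTS-ATAC libraries of 67 samples were analysed. Per the study's methods and the submitters' processing notes, the authors aligned reads to mm10, called peaks with MACS, kept consensus peaks found in replicates, counted reads in them and normalized with DESeq2. The deposited values are the authors' variance-stabilized counts on a log2 scale (VST), for 111638 elements. An annotation file by the authors lists 133549. Normalized counts and reads were recovered by undoing the transformation, and reads under 1000 lay within 6.01e-11 of a whole number. Reads in elements ran from 9298160 to 29985325 per sample (median 20254011), with size factors of 0.495 to 1.50. All 67 columns were used.

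The elements and gene lists were chosen with earlier results of these data known. Described elements were the 6 with the largest smallest rise, the 4 highest, the 4 most even, the highest for each gene of 7 lists, 5 genes with the most elements (7 were tied), 5 promoters, and in each SAG comparison the smallest P in each direction and every call; 1 element that the gene lists would name is not reported here. SAG concentrations were compared within each type with limma 3.58.1 (R 4.3.3), a variance trend and day as a term, two-sided, over elements with a mean above 100 normalized counts, with Benjamini-Hochberg adjustment. Sequence was counted with Python 3.11.15 and numpy 2.4.6 on GRCm38. The fit was run on simulated data: at least 98 of 100 changes of 2.5-fold and 100 of 100 of 4-fold were found in each comparison, with 0 false calls. The simulated counts were independent between libraries, with a fixed dispersion and no replicate, day or GC effect. The real libraries share replicate effects, so these rates show that the code works and are not error rates for these data.

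Replicate numbers came from the sample titles (15 descriptions give another number). After removal of group means, same-numbered libraries correlated with a median of 0.719 in p0-1, 0.742 in p2 and 0.750 in pMN (lowest 0.405, 0.444 and 0.602), so the numbers were taken as pairs there, and 0.571 in p3 (lowest 0.0653), where they were not. Alternatives were a block of replicate number within day, no filter, voom on the recovered reads, centering, other thresholds and leaving out replicates. Those that combine the block with centering or the adjusted P alone, use elements outside promoters, or leave out the libraries that stood apart were added after the data were seen.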

Additional observations from a re-analysis of the deposited data

Results flagged for a closer look

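Among 324 sets of 4 to 10 libraries of 1 type and day, taken over the described elements and the median of all 287, 12 (3.70%) had a library farther from the rest than Dixon's 95% limit allows. Chance gives about 1 in 20. VST values are given, with the nearest other library of the set.

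The p0-1 day 4 10 nM replicate 3 library was low at the distal Rarb element (9.73, nearest 10.38) and at Fsip1 (7.98, nearest 10.07), and the p3 day 4 100 nM replicate 1 library was low at Fsip1 (9.19, nearest 10.06). These are the libraries that stood apart over the whole set. Other low libraries were p2 day 5 100 nM replicate 3 at Gm8179 (10.80, nearest 10.98), p3 day 5 500 nM replicate 2 at Gm31520 (10.13, nearest 10.36), p0-1 day 4 10 nM replicate 2 at Gm32123 (10.03, nearest 10.19) and pMN day 4 100 nM replicate 1 at Tceal3 (8.73).

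High libraries were p2 day 4 100 nM replicate 2 at Derl1 (9.16, nearest 9.05), pMN day 6 500 nM replicate 2 at the proximal Rarb element (11.06, nearest 10.97) and p3 day 6 100 nM replicate 2 at the same element (11.40, nearest 11.25). The p2 day 5 10 nM replicate 3 library was high at Jag1 (10.36, nearest 10.07) and in the median over the 287 elements (9.63, nearest 9.49).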

How the results depend on the processing

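The number of elements was 133 with a span under 0.8 and 471 with one under 1.2, so it follows the limit chosen. It was 246 to 290 with 1 replicate number left out. With log2 counts in place of VST it was 268 (262 shared with the 287), with medians 297 (252 shared), and with each library centered on its median 276 (237 shared). Without the p0-1 library that stood apart it was 319, without the p3 library 293 and without both 334 (280 shared).

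The 3 elements called by both thresholds in p0-1 became 23 with the replicate block, 32 with the block and centering, 8 with centering, 11 without the filter on the mean, 53 with voom, 6 with the adjusted P alone, 136 with the block and the adjusted P alone, and 0 to 2 with libraries left out (0 without replicate 1 or replicate 2). The 21 in p2 became 32 with the block, 36 without the filter, 42 with voom, 311 with the adjusted P alone, 4251 with the block and the adjusted P alone, and 0 to 23 with 1 replicate number left out (0 without replicate 1, 11 without replicate 2). In pMN the block and the adjusted P alone gave 60, and in p3 the block gave 0. Of the 287, 2 in p2 were called by the adjusted P alone, and 1 in p0-1 and 29 in p2 with the block as well, while the other alternatives to both thresholds gave 0 in each type. The cause of these differences was not tested. Among the elements described with a SAG difference, the block changed the side of the 0.01 threshold at Thrb in p0-1 and at Olfml3 in p2, and at no other.

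No named difference changed sign under these alternatives: 62 stayed on their side of the threshold, 8 no longer passed it and 6 newly passed it. Of the ratios of word shares to all elements, 71 moved by less than their interval and 19 by more, chiefly against elements with a mean above 100 counts. The SOX ratio was then 1.74, and 1.54 against those outside promoters.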
